A study of Mus musculus with 12 samples.

Results

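The 10 genes described here encode 6 lysosomal proteases (Ctsb, Ctsd, Ctsk, Ctsl, Ctss and Ctsz), the lysosomal membrane protein Lamp1, the lysosomal acid lipase Lipa, the transmembrane glycoprotein Gpnmb and the transcription factor Tfeb. They were chosen by symbol, with earlier results of these data known, from a gene count table of mouse subcutaneous fat. The fat was from the inguinal depot (inguinal white adipose tissue, iWAT). All 10 were found among the 33200 gene identifiers of the table and among the 16656 genes with enough counts to be tested. The tissue came from 3 wild-type C57BL/6 mice and from 3 mice with a global knockout (KO) of Nrep made by CRISPR/Cas genome editing (Nrep-/-). Both groups were 16 weeks old and ate a standard maintenance diet under specific-pathogen-free conditions. The sources used here do not give sex, the deleted part of the gene or the number of founder lines. The labels call the libraries biological replicates. Liver was sampled too (6 samples), and those data are not used here.

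Lysosomes are acidic organelles that break down protein, lipid and carbohydrate delivered by endocytosis, phagocytosis and autophagy. Cathepsins are their proteases: Ctsd is an aspartic protease, and the other 5 are cysteine proteases. Tfeb is a basic helix-loop-helix factor that binds E-box-type sites in many lysosomal gene promoters, and its activity is set mostly by mTORC1-dependent phosphorylation, which RNA levels do not show. In fat, macrophages are rich in lysosomes and take up lipid from adipocytes, while adipocytes, fibroblasts and endothelial cells hold lysosomes of their own.

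Values are CPM, counts scaled to a common library total by TMM, which corrects totals for composition, and tests are edgeR's quasi-likelihood test over all 16656 genes with Benjamini-Hochberg adjustment at an adjusted p of 0.05. The libraries held 17970451 to 20369345 counts each. Nrep had 1300 to 1640 counts in the wild-type libraries and 2 to 5 in the KO libraries. On the main axis of variation (principal component scores from log2 CPM), the wild-type libraries lay at -54.2 to -25.4, KO replicate 2 at 1.61 and the other KO libraries at 50.2 and 71.6. The summed level of 12 adipocyte markers was 11801 to 15184 CPM in wild type and 16309 to 29537 in KO, the lowest KO value being replicate 2. The summed level of 10 skeletal muscle markers was 9.61 to 15.8 CPM in wild type and 620 to 3755 CPM in KO, again lowest in replicate 2. The part of either in the results below was not tested.

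None of the 10 genes passed the test in either direction. Over all tested genes 1.03% passed, 0.162% lower and 0.865% higher in KO. At an unadjusted p of 0.05, 5 of the 10 genes were below the threshold, all with lower values in KO, against 22.6% of all tested genes in either direction and 9.79% with lower values. DESeq2 called 1 of the 10, Ctss, lower (3.61% of all genes were called lower by DESeq2 and 11% in either direction), and limma-voom called 0 (0.0961% of all genes). On simulated counts of this design 58 of 246 DESeq2 calls, 15 of 184 edgeR calls and 7 of 166 limma-voom calls were false. In this single simulated set the DESeq2 and edgeR shares were above the nominal rate, that of DESeq2 by more. DESeq2 calls below are to be read with that. No further set was drawn, so how far these shares vary between sets is not known. The counts were drawn gene by gene from edgeR's dispersions, so patterns shared between genes, as in KO replicate 2, were not simulated. At an adjusted p of 0.10, edgeR too called Ctss alone, with 2.75% of all genes called lower and 8.27% in either direction. The log2 fold changes ranged from -1.26 for Gpnmb to 0.33 for Ctsd, 8 negative (55.8% of all tested genes were) and 2 positive, with a median of -0.41 beside -0.06 over all tested genes. In 3 of the 10, Ctss, Ctsk and Lipa, every KO library lay below every wild-type library, and 13.1% of all tested genes had that arrangement. The 10 genes and the lists below were chosen with earlier results known. Setting them beside the shares of all genes is therefore a description and no test. The genes with the highest CPM, Ctsb, Ctsd, Lamp1 and Ctsl, overlapped between genotypes. Together the 10 genes took 0.427% to 0.642% of all counts in wild type and 0.453% to 0.511% in KO.

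**Figure D1:**
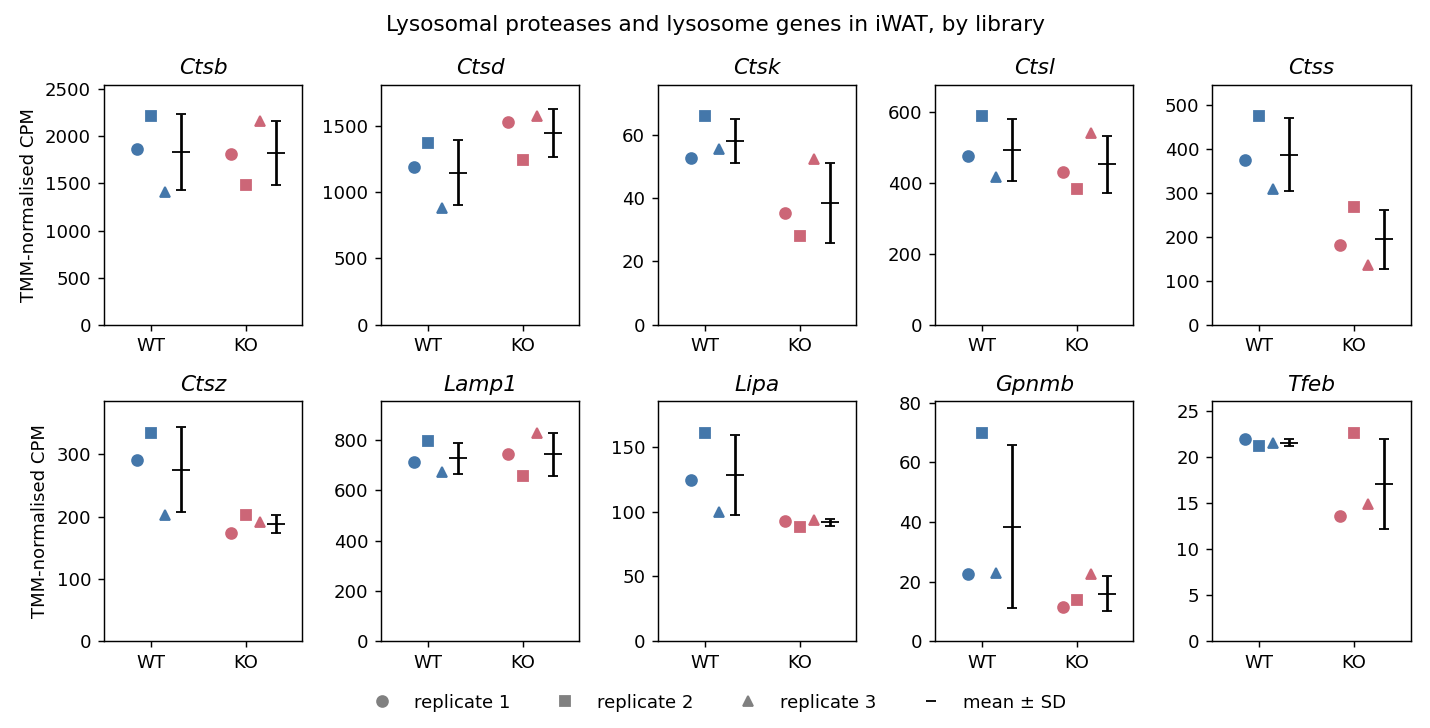
TMM-normalised CPM of each of the 10 genes (y axis, from 0) in the 3 wild-type (WT) and 3 KO libraries (x axis), with symbols for replicates and a bar for mean ± SD. Ctss, Ctsk and Lipa show no overlap between genotypes, Ctsk by a narrow margin, and Gpnmb is set apart in wild type by replicate 2.

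**Figure D2:**
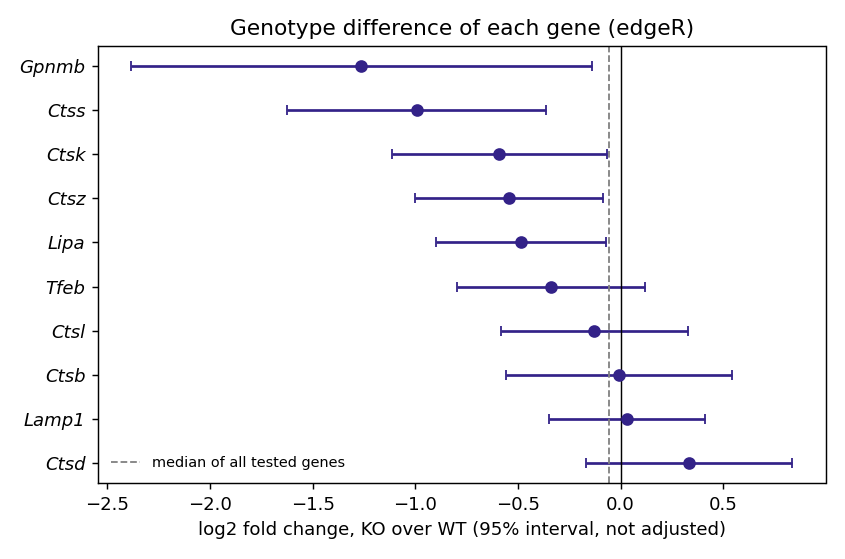
Log2 fold change of each gene in KO over wild type with its 95% interval, not adjusted for the number of genes, and the median of all tested genes as a dashed line. Intervals for Gpnmb, Ctss, Ctsk, Ctsz and Lipa lie below 0, those of the other 5 genes include 0, and no gene passed after adjustment over all genes.

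Promoter sequences of 3 of these genes are shown because they carry the letters of sites named in the background above or of a myeloid factor. RefSeq windows (GRCm38.p6) from 250 bases before to 50 after the start were held for 9 of the 10 genes; Ctsb had none. The E-box CACGTG was in the windows of Ctsd, Ctsl and Lamp1, 3 of 9 genes, and in 7.15% of all 32851 windows. The longer form TCACGTG, which contains the E-box, was in those of Ctsd and Lamp1 and in 3.77% of all windows. The full CLEAR motif bound by Tfeb, here the E-box with GT before it and AC after it, contains both shorter forms. An exact match to it was in none of the 9 and in 0.326% of all windows, and near matches were not searched. The core letters GAGGAAGT of sites bound by PU.1, a factor of myeloid cells, were in the Ctss window and in 3.2% of all windows. Both strands were searched, and a match describes letters, not binding. The bases before the start are printed 5′ to 3′ on the gene's strand, for Ctss on to the end of a match that crosses the start, with matches in capitals (the E-box forms in Lamp1 and Ctsd, and the reverse complement of the PU.1 letters in Ctss).
Lamp1, chr8:13158911-13159160, plus strand: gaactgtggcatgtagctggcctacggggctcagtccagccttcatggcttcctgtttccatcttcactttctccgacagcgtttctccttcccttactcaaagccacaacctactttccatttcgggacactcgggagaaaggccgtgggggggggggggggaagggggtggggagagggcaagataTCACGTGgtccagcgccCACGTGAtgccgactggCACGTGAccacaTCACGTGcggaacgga
Ctsd, chr7:142387828-142388077, minus strand: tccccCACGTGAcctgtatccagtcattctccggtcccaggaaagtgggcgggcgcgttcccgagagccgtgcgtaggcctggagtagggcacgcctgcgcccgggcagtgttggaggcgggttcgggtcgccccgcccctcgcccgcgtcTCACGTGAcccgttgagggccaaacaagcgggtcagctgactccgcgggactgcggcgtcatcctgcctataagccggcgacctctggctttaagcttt
Ctss, chr3:95526536-95526791, plus strand: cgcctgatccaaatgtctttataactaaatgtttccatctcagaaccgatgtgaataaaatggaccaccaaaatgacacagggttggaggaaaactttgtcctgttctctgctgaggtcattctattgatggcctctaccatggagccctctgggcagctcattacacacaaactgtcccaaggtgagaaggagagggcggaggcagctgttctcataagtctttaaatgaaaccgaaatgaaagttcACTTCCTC
Lamp1 holds 4 E-boxes before its start, at -61, -45, -28 and -15, and Ctsd holds 2, at -245 and -98. The PU.1 letters of Ctss begin at -2 and cross the start. Of the genes with an E-box, all 3 overlapped between genotypes, as the values below show. Ctsz, Gpnmb and Tfeb, with no E-box in their windows, overlapped too. Over all tested genes 13.1% were lower and 15.2% higher without overlap, so overlap was the usual case. No test relates letters to levels.

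Ctss (ENSMUSG00000038642), cathepsin S, is a cysteine protease of antigen-presenting cells that trims the MHC class II invariant chain. Its level was 376, 475 and 310 CPM for wild-type replicates 1 to 3, and 181, 267 and 135 CPM for those of the KO. All KO libraries lay below all wild-type libraries, and KO replicate 2 was the highest of the KO libraries. The mean was 387 ± 82.8 CPM in wild type and 194 ± 67.0 for KO (mean ± SD, n = 3 each); the log2 fold change was -0.99 (SE 0.272, edgeR adjusted p = 0.0934). DESeq2 gave an adjusted p of 0.00808, the lowest over 15 alternative settings, of which the highest was 0.311, and the log2 fold change stayed between -1.23 and -0.79. Without KO replicate 2 the adjusted p was 0.00916. In bulk tissue, fewer cells of a type and less RNA per cell cannot be told apart. The summed level of 15 macrophage markers, all detected and 13 of them with negative log2 fold changes, was 1747 to 2360 CPM in wild type and 1136 to 1596 CPM in KO. Among the KO libraries the macrophage sum was lowest in replicate 2, where Ctss was highest. The summed level of 9 B and T cell markers was 1110 to 1162 CPM in wild type and 624, 1345 and 354 CPM in the KO libraries 1 to 3, the same order of the KO libraries as in Ctss. The sum of 8 dendritic cell markers had that order too, with 1812, 3034 and 1350 CPM in the KO libraries 1 to 3 and 2836 to 3165 in wild type. These markers include Cd74 and H2-Ab1, antigen presentation genes that other cell types express as well, so the sum does not stand for dendritic cells alone. The part of these cell types in the Ctss values was not tested.

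The genes whose profile over the 6 libraries was nearest to that of Ctss were Soat1, which esterifies cholesterol, Naip2, an innate immune sensor, and Ifi30, a lysosomal thiol reductase of antigen processing. Their root mean square differences from Ctss in centred log2 CPM were 0.0480, 0.0625 and 0.0655, among 10063 candidate genes with a mean of at least 10 CPM.

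Ctsz (ENSMUSG00000016256), cathepsin Z, a cysteine carboxypeptidase abundant in myeloid cells, had wild-type levels of 290, 334 and 202 CPM (replicates 1 to 3) and KO levels of 174, 202 and 191 CPM. Wild-type replicate 3 lay within the KO range, at 201.9 CPM against 202.4 in KO replicate 2, so the groups met but did not separate. The log2 fold change was -0.54 (SE 0.198, edgeR adjusted p = 0.160), or 1.46-fold lower in KO. The nearest profiles were those of Pdia4, Hyou1 and Rpn1, genes of protein folding and glycosylation in the endoplasmic reticulum, at root mean square differences of 0.0269, 0.0293 and 0.0501.

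Ctsk (ENSMUSG00000028111), cathepsin K, cleaves collagen and is best known from osteoclasts, though fibroblasts express it as well. It had 52.9, 66.0 and 55.5 CPM in wild type and 35.4, 27.9 and 52.6 CPM in KO replicates 1 to 3. The groups did not overlap, but KO replicate 3 came within 1 CPM of the lowest wild-type library. The log2 fold change was -0.59 (SE 0.226, edgeR adjusted p = 0.179), and it lay between -0.88 (without KO replicate 3) and -0.34 (without KO replicate 2) over the alternatives. The nearest profiles were Prss23, a serine protease, and the fibrillar collagen genes Col1a2 and Col5a1, at 0.0642, 0.0745 and 0.0834. The summed level of 10 fibroblast and progenitor markers was 7313 to 8962 CPM in wild type and 5519, 4227 and 7916 CPM in KO replicates 1 to 3, the same order among the KO libraries as in Ctsk. Of the 10 markers 0 passed in edgeR, and 6 had negative and 4 positive log2 fold changes, from -0.84 to 0.80. Without overlap 3 were lower and 0 higher, where 13.1% and 15.2% of all tested genes were. Col3a1 and Col1a1, the collagen genes that make up most of the sum, had log2 fold changes of -0.68 and -0.49 (edgeR adjusted p = 0.204 and 0.379), with overlap in both. The part of fibroblasts in the Ctsk values was not tested. The sum of 6 osteoclast markers was 111 to 133 CPM in wild type and 81.9 to 113 CPM in KO. It came almost wholly from Nfatc1 and Mmp9, which other cell types express as well and which both overlapped between genotypes. The other 4 were too low to test, with 0 to 2 counts of Calcr, 0 to 1 of Oscar, 2 to 16 of Dcstamp and 2 to 30 of Ocstamp.

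Ctsb (ENSMUSG00000021939), a broadly expressed cysteine protease, had 1869, 2214 and 1408 CPM in wild type and 1809, 1488 and 2166 in KO replicates 1 to 3. The ranges lay on top of each other. Its log2 fold change was -0.01, with a 95% interval of -0.56 to 0.54 (edgeR adjusted p = 0.987). Ctsl (ENSMUSG00000021477), another broadly expressed endopeptidase, had 478, 589 and 416 CPM in wild type and 432, 385 and 541 CPM in KO, a log2 fold change of -0.13 with an interval of -0.58 to 0.33 (adjusted p = 0.710). In both genes replicate 2 was the highest of wild type and the lowest of KO. The profiles nearest to Ctsb were Atp6v0a1, a proton pump subunit, Plod3 and S100a11, at 0.0449, 0.0463 and 0.0568, and those nearest to Ctsl were Plod1, Mfsd11 and Lix1l, at 0.0380, 0.0444 and 0.0458. Plod1 and Plod3 encode collagen lysyl hydroxylases. The intervals leave room for differences of up to about the size seen in Ctsz.

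Ctsd (ENSMUSG00000007891), the aspartic protease, was the member with the highest log2 fold change. It had 1190, 1370 and 881 CPM in wild type and 1530, 1238 and 1572 CPM in KO replicates 1 to 3. KO replicate 2 lay between the wild-type libraries, and the other KO libraries lay above all of them. The mean was 1147 ± 247 CPM in wild type and 1447 ± 182 for KO (mean ± SD, n = 3 each); the log2 fold change was 0.33 (SE 0.217, edgeR adjusted p = 0.379). It was 0.18 without wild-type replicate 3 (adjusted p = 0.651) and 0.49 without KO replicate 2 (adjusted p = 0.103). The nearest profiles were Znhit1, Col15a1, a basement membrane collagen, and the glycolytic gene Pgk1, at 0.0543, 0.0626 and 0.0660.

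The mixture of the 6 cathepsins was compared within each library, which removes the scaling between libraries. Levels were taken per kilobase of merged exons (GENCODE M21, which may differ from the annotation behind the counts), so that genes of different length can be set side by side. Merged exons join those of all annotated transcripts, 6051 bases for Ctsb and 2351 for Ctsd, and the order of the genes depends on these lengths. On CPM, Ctsb was above Ctsd, with means of 1830 and 1147 in wild type and 1821 and 1447 in KO. Ctsd was the largest part, with 36.1%, 35.0% and 34.8% of the cathepsin sum for wild-type replicates 1 to 3, against 50.3%, 44.4% and 48.6% in KO. Ctss took 19.8%, 21.0% and 21.2% in wild type and 10.3%, 16.6% and 7.24% in KO. Ctsz took 13.0% to 14.4% in wild type and 9.32% to 11.8% in KO. For these 3 genes no KO library reached the wild-type range, Ctsd above it and Ctss and Ctsz below it. On CPM, Ctsd and Ctsz overlapped between genotypes. How often other genes would separate on such shares of a sum was not computed. On CPM, 13.1% of all tested genes were lower and 15.2% higher without overlap. The share of Ctsb was 21.6% to 22.04% in wild type and 20.7% to 26.0% in KO, and that of Ctsl 5.25% to 5.96% and 4.99% to 6.06%, so both overlapped. Ctsk took 2.50% to 3.41% in wild type and 1.56% to 2.52% in KO, and overlapped in KO replicate 3. Shares of one sum depend on each other, and they were described after the levels had been seen, with no test.

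**Figure D3:**
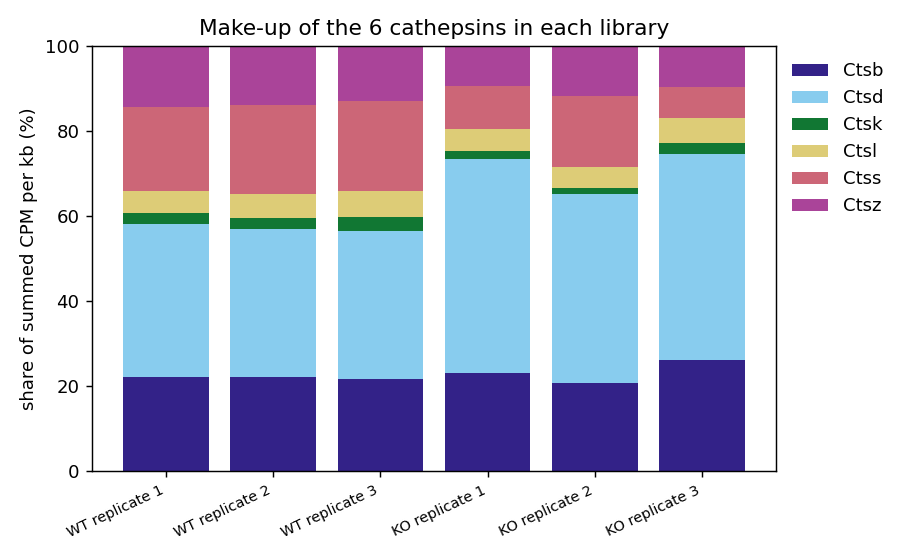
Share of each cathepsin in the summed CPM per kilobase of the 6 cathepsins (y axis, percent) in each of the 6 libraries (x axis). Ctsd takes 34.8% to 36.1% in the wild-type (WT) libraries and 44.4% to 50.3% in KO, and Ctss 19.8% to 21.2% and 7.24% to 16.6%. On CPM, Ctsd overlapped between genotypes.

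Lamp1 (ENSMUSG00000031447), a heavily glycosylated protein that lines the lysosomal membrane, had 713, 796 and 674 CPM in wild type and 744, 657 and 829 CPM in KO. The KO libraries spanned the wild-type range. Its log2 fold change was 0.03, with a 95% interval of -0.35 to 0.41 (edgeR adjusted p = 0.922), the narrowest interval of the 10 genes. Its nearest profiles were Prdx4, a peroxiredoxin of the endoplasmic reticulum, Abhd12, a lipid hydrolase, and Dusp22, a phosphatase, at 0.0180, 0.0320 and 0.0340. Counts of the other 9 genes were also expressed per 100 Lamp1 counts of the same library. On this scale 4 genes were lower in every KO library than in every wild-type library (Ctsk, Ctss, Lipa and Gpnmb), 1 was higher (Ctsd), and 4 overlapped (Ctsb, Ctsl, Ctsz and Tfeb). Ctsd stood at 131 to 172 counts per 100 Lamp1 counts in wild type and 189 to 206 in KO. Ctss stood at 46.0 to 59.7 in wild type and 16.3 to 40.7 in KO. These ratios need no scaling between libraries and are given as a description, with no test. The share of all genes without overlap was not computed on this scale. On CPM, 13.1% of all tested genes were lower and 15.2% higher without overlap, and Gpnmb and Ctsd overlapped.

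Lipa (ENSMUSG00000024781) encodes lysosomal acid lipase, which frees fatty acids and cholesterol from lipoproteins and lipid droplets taken into the lysosome. It had 124, 161 and 99.8 CPM in wild type and 92.8, 88.5 and 93.9 CPM in KO replicates 1 to 3. The KO libraries lay close together and below all wild-type libraries, of which replicate 3 was nearest to them. The mean was 128 ± 30.7 CPM in wild type and 91.7 ± 2.83 for KO (mean ± SD, n = 3 each); the log2 fold change was -0.48 (SE 0.178, edgeR adjusted p = 0.165), with adjusted p-values of 0.0841 to 0.440 over the alternatives. It was -0.29 without wild-type replicate 2. The nearest profiles were Srgap2, Sdcbp and Ap2m1, at 0.0638, 0.0666 and 0.0686; Ap2m1 is a subunit of the clathrin adaptor of endocytosis.

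Gpnmb (ENSMUSG00000029816) is a glycoprotein of lipid-laden macrophages, osteoclasts and melanocytes. Its wild-type levels were 22.4, 69.9 and 22.8 CPM (replicates 1 to 3), beside 11.5, 13.9 and 22.6 CPM in KO. Wild-type replicate 2 was about 3 times the other wild-type libraries, and KO replicate 3 lay just above wild-type replicate 1. The log2 fold change was -1.26 (SE 0.482, 95% interval -2.38 to -0.14, edgeR adjusted p = 0.179). It was -0.50 without wild-type replicate 2 (adjusted p = 0.466) and -1.59 without KO replicate 3, so its size rests on 1 library. The sum over 8 lipid-associated macrophage markers did not follow this: it was 3453, 4334 and 3869 CPM in wild type and 3720, 3383 and 4512 CPM for KO replicates 1 to 3, so that KO replicate 3 was the highest library. Most of that sum was Apoe. Of the 8, 0 passed in edgeR, and 7 had negative log2 fold changes and 1 a positive one. DESeq2 called 2 lower and 1 higher, where it called 3.61% and 7.34% of all genes. The 1 higher was Fabp5, a fatty acid carrier that adipocytes express as well, with 159 ± 41.2 and 261 ± 32.6 CPM (mean ± SD, n = 3 each). Among the 8, 3 that were named after their values were seen were highest in wild-type replicate 2. Trem2, a lipid receptor, had 12.2 CPM there, 4.42 and 4.06 in the other wild-type libraries and 1.38 to 3.67 in KO. Spp1, osteopontin, had 44.0 CPM there, 16.4 and 5.11 in the other wild-type libraries and 4.09 to 5.17 in KO. Mmp12, macrophage elastase, had 20.5 CPM there, 9.26 and 9.08 in the other wild-type libraries and 2.75 to 5.12 in KO. The profiles nearest to Gpnmb were Mid1, Adgre1, the F4/80 macrophage antigen, and Ms4a7, but at distances of 0.299, 0.334 and 0.388, wider than for the other 9 genes. Some melanocyte genes were near 0 in all libraries, with 0 to 3 counts of Tyrp1, 0 to 12 of Mlana and 4 to 8 of Tyr. Of 9 melanocyte and Schwann cell markers, 6 had enough counts to be tested. All 6 had positive log2 fold changes and 0 passed in edgeR. DESeq2 called 1 of them higher, where it called 7.34% of all genes.

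Tfeb (ENSMUSG00000023990) had 22.03, 21.2 and 21.6 CPM in the wild-type libraries, whose SD was the smallest of the 10 genes relative to the mean, and 13.6, 22.7 and 14.9 CPM in KO replicates 1 to 3. KO replicate 2 was above all wild-type libraries and the other KO libraries below all of them. The log2 fold change was -0.34 (SE 0.198, edgeR adjusted p = 0.338). Without KO replicate 2 it was -0.54 with an adjusted p of 0.0204, in a fit in which 10.9% of all genes were called lower. Without KO replicate 1 it was -0.20 (adjusted p = 0.661). Its nearest profiles were Rps12, a ribosomal protein, Snrpf, a splicing protein, and Gm11131, at 0.0303, 0.0453 and 0.0459. Tfeb was the least abundant of the 10 per kilobase, at 3.81 ± 0.0748 CPM per kilobase in wild type and 3.01 ± 0.863 in KO, except that Gpnmb was lower in KO at 2.46 ± 0.890 (SD, n = 3 each). On the same scale Ctsd was highest, with 488 ± 105 in wild type and 615 ± 77.3 in KO, while on CPM Ctsb was highest. Ctsb at 302 ± 66.8, Ctss at 285 ± 61.0 and Lamp1 at 272 ± 23.3 followed in wild type, with overlapping ranges and no test between them. Within each wild-type library Ctsb was above Ctss, while the place of Lamp1 against either changed between libraries. In KO, Ctsb stood at 301 ± 56.1 and Lamp1 at 278 ± 32.2, while Ctss stood at 143 ± 49.4, beside Ctsz at 131 ± 10.04.

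The wider pathway was read from 8 lists of 150 lysosome and autophagy genes, of which 146 were tested. In edgeR 0 of the 146 passed, with 30 below an unadjusted p of 0.05 (22.6% of all tested genes were), and limma-voom called 0. DESeq2 called 10 lower and 4 higher, where it called 3.61% and 7.34% of all genes. The median log2 fold change of the 146 was -0.05, beside -0.06 over all tested genes, 86 of them negative and 60 positive. In 21 genes the KO libraries lay below the wild-type libraries without overlap and in 24 above, where 13.1% and 15.2% of all tested genes did. Without KO replicate 2 edgeR called 17 lower and 20 higher, against 10.9% and 14.5% of all genes, and without wild-type replicate 3 it called 6 lower and 0 higher (1.38% of all genes were called lower and 2.01% in either direction).

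Of 12 other lysosomal proteases tested, 0 passed, 9 had negative log2 fold changes and the median was -0.31. Ctsc, cathepsin C, which activates granule serine proteases, had 407 ± 124 CPM in wild type and 187 ± 19.8 for KO (mean ± SD, n = 3 each; log2 fold change -1.12, edgeR adjusted p = 0.0625). Lgmn, the asparaginyl endopeptidase legumain that processes cathepsins, had 303 ± 143 and 112 ± 6.83 CPM (log2 fold change -1.44, adjusted p = 0.0721). Ctsh, an aminopeptidase cathepsin named after its values were seen, had 225 ± 26.5 and 153 ± 17.1 CPM (adjusted p = 0.0900). In these 3 genes the groups did not overlap, and DESeq2 called each lower. Over the list, 7 of the 12 were lower without overlap and 0 higher, and DESeq2 called 4 lower, where 13.1% of all tested genes were lower without overlap and 3.61% were called lower by DESeq2. Of 7 tested protease inhibitors and cofactors, 0 passed. Psap, the precursor of the saposins, had 2358 ± 342 CPM in wild type and 2292 ± 110 CPM in the KO, and Cst3, cystatin C, had 550 ± 25.01 and 546 ± 63.1.

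Among 29 other lysosomal hydrolases 0 passed and the median log2 fold change was -0.07. Lyz2, the myeloid lysozyme, had a log2 fold change of -0.78 (edgeR adjusted p = 0.126); reads shared with its near-identical neighbour Lyz1 make it uncertain. Acp5, tartrate-resistant acid phosphatase, had 303 ± 4.65 CPM in wild type and 369 ± 58.3 CPM in the KO, without overlap (log2 fold change 0.28, adjusted p = 0.310). Among 21 membrane proteins 0 passed, with a median of -0.09. Npc2, a cholesterol carrier of the lysosomal lumen, had 621 ± 85.5 and 653 ± 65.0 CPM, and Laptm4a, a membrane protein, 455 ± 20.7 and 551 ± 85.9. Cd68, Slc11a1 and Slc15a3, which are enriched in macrophages and were named after their values were seen, had log2 fold changes of -1.38, -1.07 and -1.58 (edgeR adjusted p = 0.0630, 0.0625 and 0.0844). DESeq2 called all 3 of them lower. It called 1 gene of the list higher, Mfsd8, a lysosomal membrane protein likewise chosen with its values known, at 27.0 ± 1.39 and 41.2 ± 9.46 CPM (log2 fold change 0.61, edgeR adjusted p = 0.101). In the list 5 genes were lower without overlap and 4 higher, where 13.1% and 15.2% of all tested genes were.

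The proton pump and sorting lists had medians equal to that of all genes to 2 decimals, and the autophagy list had the highest median of the 8. Among 19 vacuolar ATPase subunits, which acidify the lysosome, 0 passed and the median was -0.06, with Atp6ap1 at a log2 fold change of -0.15 and Atp6v1b2 at -0.32. Tcirg1, the a3 subunit of osteoclasts and immune cells, chosen after its values were seen, had 52.3 ± 6.13 CPM in wild type and 31.6 ± 6.65 CPM in the KO (edgeR adjusted p = 0.0714). Atp6v0e2, a membrane-sector subunit chosen in the same way, had 6.41 ± 0.832 and 11.3 ± 3.48 CPM (log2 fold change 0.82, edgeR adjusted p = 0.108). DESeq2 called the first of them lower and the second higher. In the list 2 subunits were lower and 2 higher without overlap, where 13.1% and 15.2% of all tested genes were. Among 22 Tfeb relatives and mTORC1 regulators 0 passed, with a median of 0.05. Rragc and Rheb, GTPases that act on mTORC1 at the lysosome, had log2 fold changes of 0.22 and 0.11, and Tfec, a macrophage relative of Tfeb named after its values were seen, one of -1.34 (6.24 ± 1.50 and 2.45 ± 1.22 CPM, adjusted p = 0.0954). Among 18 sorting genes 0 passed, with a median of -0.06. Sort1, the sorting receptor sortilin, which is abundant in adipocytes, had 252 ± 14.4 and 428 ± 107 CPM (log2 fold change 0.76, adjusted p = 0.0895), and Rab7, a late endosome GTPase, had a log2 fold change of -0.02. Among 18 autophagy genes 0 passed and the median was 0.15, with 13 positive and 5 negative. Without overlap 3 were higher, where 15.2% of all tested genes were. Sqstm1, the p62 cargo receptor, was at 0.12 and Gabarap, a ubiquitin-like protein of autophagosomes, at -0.05.

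**Figure D4:**
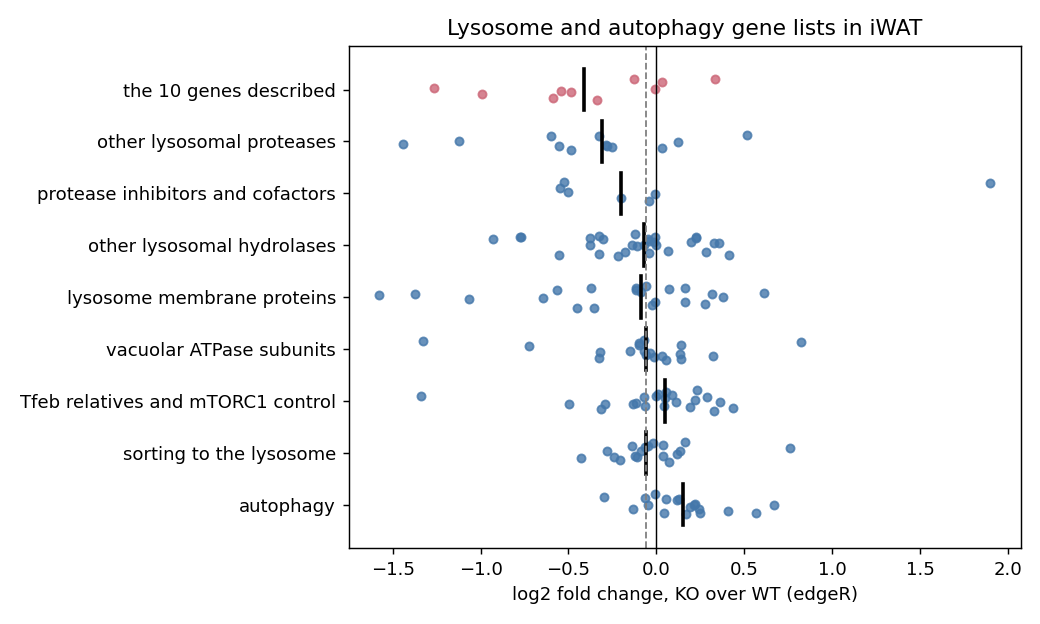
Log2 fold change in KO over wild type (x axis) of every tested gene of the 10 described and of the 8 other lists (rows), with a thick bar at each median, a dashed line at the median of all tested genes and a thin line at 0. Medians run from -0.41 for the 10 genes to 0.15 for autophagy, and no gene shown passed an adjusted p of 0.05.

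Beside the lower values of the macrophage-enriched genes, the macrophage markers themselves were unequal. Over the 15 markers the log2 fold changes ran from -3.25 to 0.17, with a median of -0.62. Without overlap 9 were lower and 0 higher, where 13.1% and 15.2% of all tested genes were. Csf1r, the receptor for colony-stimulating factor, had 255 ± 24.95 CPM in wild type and 205 ± 12.7 for KO (mean ± SD, n = 3 each; log2 fold change -0.32, edgeR adjusted p = 0.220), and C1qa, a complement component of tissue macrophages, had a log2 fold change of -0.43 (adjusted p = 0.203). None of the 15 passed, 12 were below an unadjusted p of 0.05, all lower in KO, and DESeq2 called 5 lower, where 9.79% of all tested genes were lower at that unadjusted p and 3.61% were called lower by DESeq2. The summed level of 8 neutrophil markers was 39.1 to 240 CPM in wild type and 13.7 to 41.0 in KO, and edgeR called 1 of the 7 tested lower (0.162% of all genes were). Their part in the values of the lysosomal genes was not tested.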

How the data were processed

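Per the labels' protocols, poly(A) RNA of iWAT was sequenced from stranded libraries (Illumina Stranded mRNA Prep Ligation kit). The deposited table gives each library a column of estimated counts by gene, unscaled and unpooled; 9.53% to 11.1% of its values per library were not whole. The submitters' processing notes name fastp, featureCounts, GRCm38 and GRCm39 for the whole series without roles. The sources used here name neither the quantifier nor how reads shared between near-identical genes were handled.

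These values were rounded to whole numbers. GENCODE M21 names matched 26372 of 33200 identifiers (79.4%); those without a symbol held 0.980% to 1.39% of counts and stayed in the tests. A single count equalled 0.0466 to 0.0574 CPM. Genotypes were compared by quasi-likelihood in edgeR 4.0.16 under R 4.3.3 (TMM, filterByExpr, robust, no covariate, two-sided), with SE taken as the log2 fold change divided by the square root of F, and p-values measure the spread between these animals only. Alternatives used DESeq2 1.42.0, limma-voom (limma 3.58.1), other scaling, filters and thresholds, a block for replicate number, and the omission of each library. Tests were checked on a single set of simulated counts. There DESeq2 recovered more of the changed genes than edgeR or limma-voom but also made more false calls. In that set the false share of the DESeq2 calls, and to a lesser degree of the edgeR calls, was above the nominal rate. No 2 libraries were identical.

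The 10 genes and all lists were chosen with earlier results of these data known. From each pathway list and from the macrophage and fibroblast lists, up to 4 genes past the test were to be named or, where fewer than 2 passed, those with the highest mean CPM until 2 were named; other names are marked in the text as chosen after their values were seen. Principal components used log2 CPM with a prior count of 2. Nearest profiles used log2 CPM with a pseudocount of 0.1, centred per gene, among genes with a mean of at least 10 CPM.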

Additional observations from a re-analysis of the deposited data

How the results depend on the processing

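Of the 10 genes 0 were called higher in any of the 15 alternatives. The count called lower, 0 as reported, was 1 (Ctss) in DESeq2, with no filter, at an adjusted p of 0.10 and with the replicate block, and 0 to 2 on leaving out 1 library (2, Ctss and Tfeb, without KO replicate 2). Pathway genes called higher were 4 in DESeq2, 4 with no filter, 2 at 0.10, 1 with the block and 0 to 20 on leaving out 1 library; called lower they were 10, 6, 8, 9 and 0 to 17. All genes called, 171 as reported, were 1824 in DESeq2, 16 in limma-voom, 1370 with no filter, 1378 at 0.10, 1225 with the block, and 1 to 4221 on leaving out 1 library (1 without KO replicate 1 or wild-type replicate 1 or 2, 3 without KO replicate 3, 334 without wild-type replicate 3, 4221 without KO replicate 2). The cause was not tested, except that leaving out a library leaves fewer samples.

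The labels number the replicates and state no pairing between libraries of the same number. Deviations of same-numbered libraries correlated at -0.00770, 0.196 and 0.105 across genes, and those of differently numbered libraries at -0.177 to 0.139. Of 6 libraries 3 correlated best with their own number. Whether same-numbered libraries were handled together was not tested. With the replicate block Ctss had an adjusted p of 0.0159.

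Scaling by library totals alone shifted the all-gene median by -0.134 (log2) and gave 129 higher and 49 lower calls, against 144 and 27. It turned Lamp1 to -0.11, Npc2 to -0.0690, Rheb to -0.0316 and Sqstm1 to -0.0228. DESeq2 and its size factors in edgeR each turned Ctsb to 0.0333, Cst3 to 0.0295 and Rab7 to 0.0215, and limma-voom turned Ctsb to 0.0036. Leaving out 1 library gave -0.16 to 0.18 for Ctsb, -0.28 to 0.0344 for Ctsl, -0.0547 to 0.17 for Lamp1, -0.13 to 0.0796 for Psap, -0.11 to 0.10 for Cst3, -0.0363 to 0.20 for Npc2, -0.0943 to 0.0859 for Rab7 and -0.13 to 0.0711 for Gabarap. None of these was called under any alternative. The other 7 of the 10 genes kept their sign in all 15 alternatives.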
